A study of Homo sapiens with 4 samples.

Results

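The oxidant defence genes are 33 genes that remove superoxide and peroxides, keep thioredoxin and glutathione reduced, or control the transcription of these enzymes. Their H4K20me1 peaks were taken by a rule that kept every listed peak outside the class distal intergenic whose nearest gene is one of the 33. The rule found 43 peaks at 17 of the 33 genes, out of 25514 peaks in the whole table, of which 19663 had a gene symbol and lay outside that class (gene peaks below). The mark, lysine 20 of histone H4 with a single methyl group, was mapped by CUT&Tag, in which an antibody brings the Tn5 transposase to marked chromatin and the released fragments are sequenced. The cells were Kasumi-1, an established acute myeloid leukemia line that carries a fusion of RUNX1 and RUNX1T1. Of 4 libraries of 100000 cells each, 2 came from cells given a non-targeting guide (titles sgNT and sgNT#2, genotype WT) and 2 from cells with SETD8 knockout by CRISPR/Cas9 (sgSETD8 and sgSETD8 #2). The labels do not say whether "#2" marks another guide or a repeat library, whether the libraries came from separate cultures, or what share of the cells carried the edit. SETD8, also named KMT5A, is the methyltransferase that places this mark, and the comparison addresses where the mark differs after its loss.

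The table gives 1 value per group and peak, not 1 per library, so no difference below has a replicate check. A value is log2 of scaled reads in the peak. No header says which group comes first. The deposited comparison is named treated against control, so the knockout may be listed first, and a log2 fold change here is the first-listed minus the second-listed group throughout. Recovered reads in peaks numbered 2791207 and 2682916 in the groups. Peaks of the oxidant defence genes held 37 to 428 reads (median 112) in the group listed first and 28 to 349 (median 118) in the other. Of 9 genes typical of Kasumi-1 and myeloid blasts, 5 carried a gene peak (KIT, CD34, RUNX1, RUNX1T1 and SPI1) and 4 did not (CD33, MPO, CD38 and CEBPA). Of 9 genes of other cell types 1 did (ALB), and the mark over a gene is not a measure of its expression. Tn5 cuts carry no strand, so the mark over overlapping or antisense genes cannot be told apart.

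Superoxide dismutases turn superoxide into hydrogen peroxide, which catalase, the glutathione peroxidases and the peroxiredoxins then reduce. Peroxiredoxins draw their electrons from thioredoxin and most glutathione peroxidases from glutathione, and both are kept reduced with NADPH by their own reductases. The transcription factor NRF2, encoded by NFE2L2, switches on many of these genes through the antioxidant response element once its inhibitor KEAP1 lets it go, and BACH1 competes for the same element. Mitochondria and NADPH oxidases are the main sources of such oxidants in blood cells. H4K20me1 is typically found over the transcribed bodies of genes and is built up in the later part of the cell cycle by SETD8.

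A gene peak was present at 17 of 33 oxidant defence genes, or 51.5% (exact Clopper-Pearson 95% interval 33.5 to 69.2). Over 20056 protein-coding genes the share was 37.7% (37.1 to 38.4). Of the superoxide dismutase, catalase and glutathione peroxidase genes 5 of 6 were marked (interval 35.9 to 99.6%): SOD1, SOD2, CAT, GPX1 and GPX4 had a peak and GPX7 had none. In the other roles 3 of 6 or 3 of 7 genes were marked, with intervals that overlap this one. Of the peroxiredoxin genes PRDX1 and PRDX6 had a peak, as did SRXN1, the sulfiredoxin that repairs overoxidised peroxiredoxins, while the other peroxiredoxin genes PRDX2, PRDX3, PRDX4 and PRDX5 had none. Among thioredoxin genes TXN, TXNRD1 and TXNRD2 had peaks, and TXN2, TXNIP, GLRX and GLRX2 had none. In glutathione metabolism GCLC, GSR and NNT were marked, and GCLM, GSS, SLC7A11 and MGST1 were not. In the role of NRF2 regulators and inducible targets, NFE2L2, KEAP1 and BACH1 had a peak, and HMOX1, NQO1 and HMOX2 had none. None of the 16 unmarked genes was the nearest gene of a distal intergenic peak either. Marked genes had a median RefSeq length of 33127 bp (1178 to 134529), unmarked ones one of 13853.5 bp (3691 to 246217). All protein-coding genes showed the same order, with 41810 bp for the 7568 with a peak and 16805.5 bp for the 12488 without. Longer genes offer more room for a peak, and the part of length in the list's share was not tested.

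Start sites of the marked and unmarked genes can be compared by sequence. RefSeq windows from 250 bases before to 50 after the start (GRCh38.p14, the same assembly as hg38) matched 25 of the 33 genes, with 45 windows. SOD1, PRDX1, PRDX6, TXN2, GSR, GSS, SLC7A11 and HMOX1 had no window, and their starts were not searched. Of the 45 windows, 13 windows of 9 genes overlapped a peak of any gene (28.9%), against 20.1% of 22199 windows of protein-coding genes. Member windows under a peak held a median of 34 CG dinucleotides (12 to 43), and those not under a peak 27 (0 to 47). In protein-coding genes the medians were 26 and 18. GPX4 and TXN are shown as 2 examples of a start under a peak of the gene itself, chosen after their values were seen. The 250 bases before the first GPX4 start (chr19:1103744-1103993, plus strand) hold 33 CG dinucleotides, and those before the TXN start (chr9:110256508-110256757, minus strand) hold 32, and each CG is in capitals.

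GPX4: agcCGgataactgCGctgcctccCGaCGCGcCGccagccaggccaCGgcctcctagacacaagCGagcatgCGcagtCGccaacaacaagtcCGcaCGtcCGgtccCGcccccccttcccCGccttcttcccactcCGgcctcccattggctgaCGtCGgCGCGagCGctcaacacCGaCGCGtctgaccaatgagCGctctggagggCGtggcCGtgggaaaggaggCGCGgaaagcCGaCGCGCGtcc
TXN: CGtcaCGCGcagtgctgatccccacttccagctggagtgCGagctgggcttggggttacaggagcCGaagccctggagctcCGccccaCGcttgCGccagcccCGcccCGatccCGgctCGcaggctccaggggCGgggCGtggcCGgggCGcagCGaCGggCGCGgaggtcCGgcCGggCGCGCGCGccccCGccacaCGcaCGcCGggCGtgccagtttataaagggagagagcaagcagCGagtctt

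The core of the antioxidant response element, searched as TGACNNNGC on both strands, was found in 5 of the 45 windows (11.1%), against 13.8% of protein-coding windows. The looser form TGANNNNGC, which contains the first, was in 44.4% of member windows and 41.9% of protein-coding ones. Among the 25 genes with a window, GCLM, KEAP1, MGST1 and TXNRD1 had a core. Of the 5 windows, only that at an internal start of TXNRD1 lay under a peak. The cores of GCLM, TXNRD1 and KEAP1 are shown to compare this internal start with starts that no peak covered. Each line gives the core in capitals with 10 bases on either side, on the strand of the gene. The cores that begin with GC match the motif on the opposite strand, and one further core each of TXNRD1 and MGST1 is not shown.

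TXNRD1 internal start, under a peak (chr12:104286920-104286948, plus): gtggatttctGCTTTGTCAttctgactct
GCLM start, no peak (chr1:93909446-93909474, minus): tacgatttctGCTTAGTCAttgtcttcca
KEAP1 start, no peak (chr19:10502784-10502812, minus): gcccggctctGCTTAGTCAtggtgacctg
KEAP1 start, no peak (chr19:10502807-10502835, minus): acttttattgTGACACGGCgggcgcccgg
TXNRD1 upstream start, no peak (chr12:104215670-104215698, plus): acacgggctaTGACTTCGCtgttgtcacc

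A match is a string of letters and not a bound site, and windows without one say nothing about NRF2.

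The density of the mark differed widely among the marked genes. Signal per kb exceeded that of the median gene peak in 27 of 43 peaks, with a median percentile of 68.7, and 12 peaks of 6 genes lay above percentile 90. In 6 genes (SOD2, PRDX1, PRDX6, SRXN1, TXNRD2 and GCLC) every peak lay below the median gene peak. The densest lay in intron 1 of 4 of RHOA, which the nearest-gene rule gives to GPX1 (percentile 98.2). All 3 peaks of GSR followed (96.8, 96.2 and 96.5), and 3 of the 4 peaks of BACH1 lay between 92.6 and 95.3. The thinnest were the peak of SOD1 that lies in SCAF4 (5.95) and the peak near the end of TXNRD1 (8.02), and the 4 peaks of TXNRD2 and SRXN1 lay between 10.5 and 14.8. Of 17 peaks within 1 kb of a start as the authors annotate it, 14 had their centre downstream of that start (82.4%, against 70.8% of 6749 such gene peaks). The median centre of the 17 peaks lay 446.5 bp past that start, and the median of all such peaks 377.5 bp.

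None of the 43 peaks passed the authors' test. By the authors' deposited table, 0 of 43 had an adjusted p under 0.05, where 0% of all 25514 peaks did, and the smallest adjusted p was 0.998. With the unadjusted p under 0.05, a count of 0 of 43 stood against 3.89% of gene peaks with a higher value and 1.31% with a lower one in the first-listed group. For scale, among 2308 gene peaks with 200 to 260 reads over both groups, the smallest log2 fold change with an unadjusted p under 0.05 was 0.78 in size, and the median member peak held 241 reads. No member peak differed by that much, since the fold changes ran from −0.58 to 0.61. Other depths were not examined, and the absence of calls does not show that the groups were alike.

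By sign, 24 peaks were above 0 and 19 below, and the median was 0.06, against 0.09 for all gene peaks and 0.06 for all peaks. The sign of small values follows the scaling. With both groups scaled to equal reads in peaks, all fold changes shift by −0.11, the median becomes −0.05 and 18 peaks lie above 0 and 25 below. The share above 0 is then 41.9% in place of 55.8%, and that of all peaks 44.7% in place of 58.2%. A fold change of at least 0.5 on the log2 scale was listed for 1 peak (15.1% of gene peaks) and one of −0.5 or less for 3 peaks (7.01% of gene peaks). These were in CAT at one end, and in KEAP1, PRDX6 and NNT at the other.

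**Figure D1:**
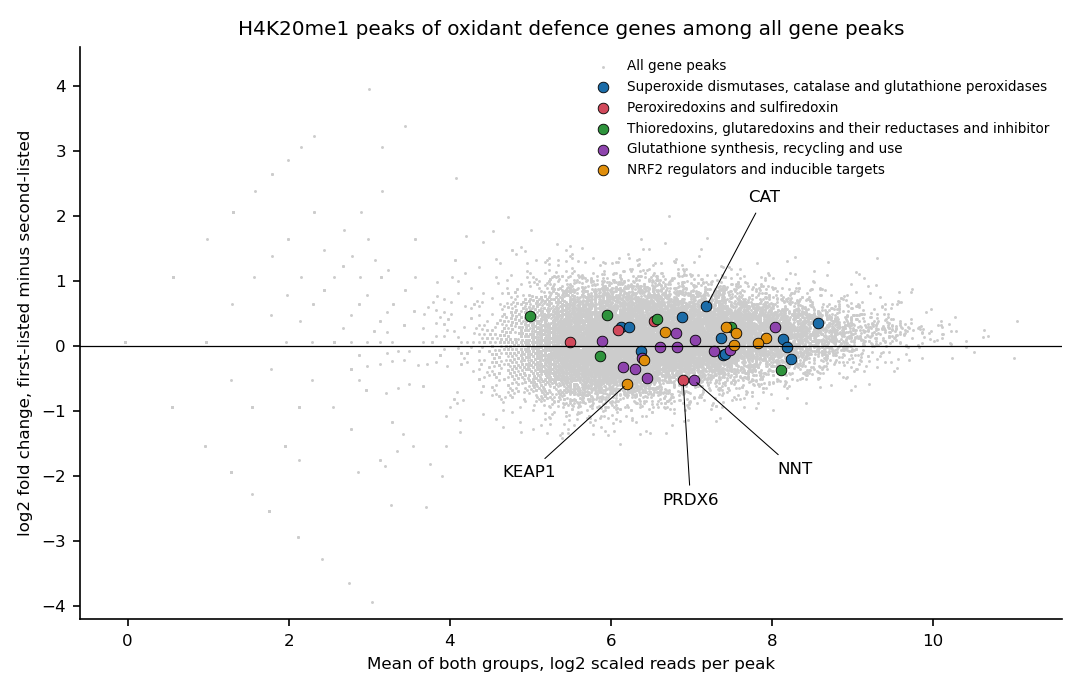
Log2 fold change (first-listed minus second-listed) of each gene peak against the mean of both groups in log2 scaled reads, with all 19663 gene peaks in grey and the 43 peaks of oxidant defence genes in colour by role. The coloured points lie within the grey cloud between −0.58 and 0.61, and the 4 peaks past 0.5 in size are named.

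**Figure D2:**
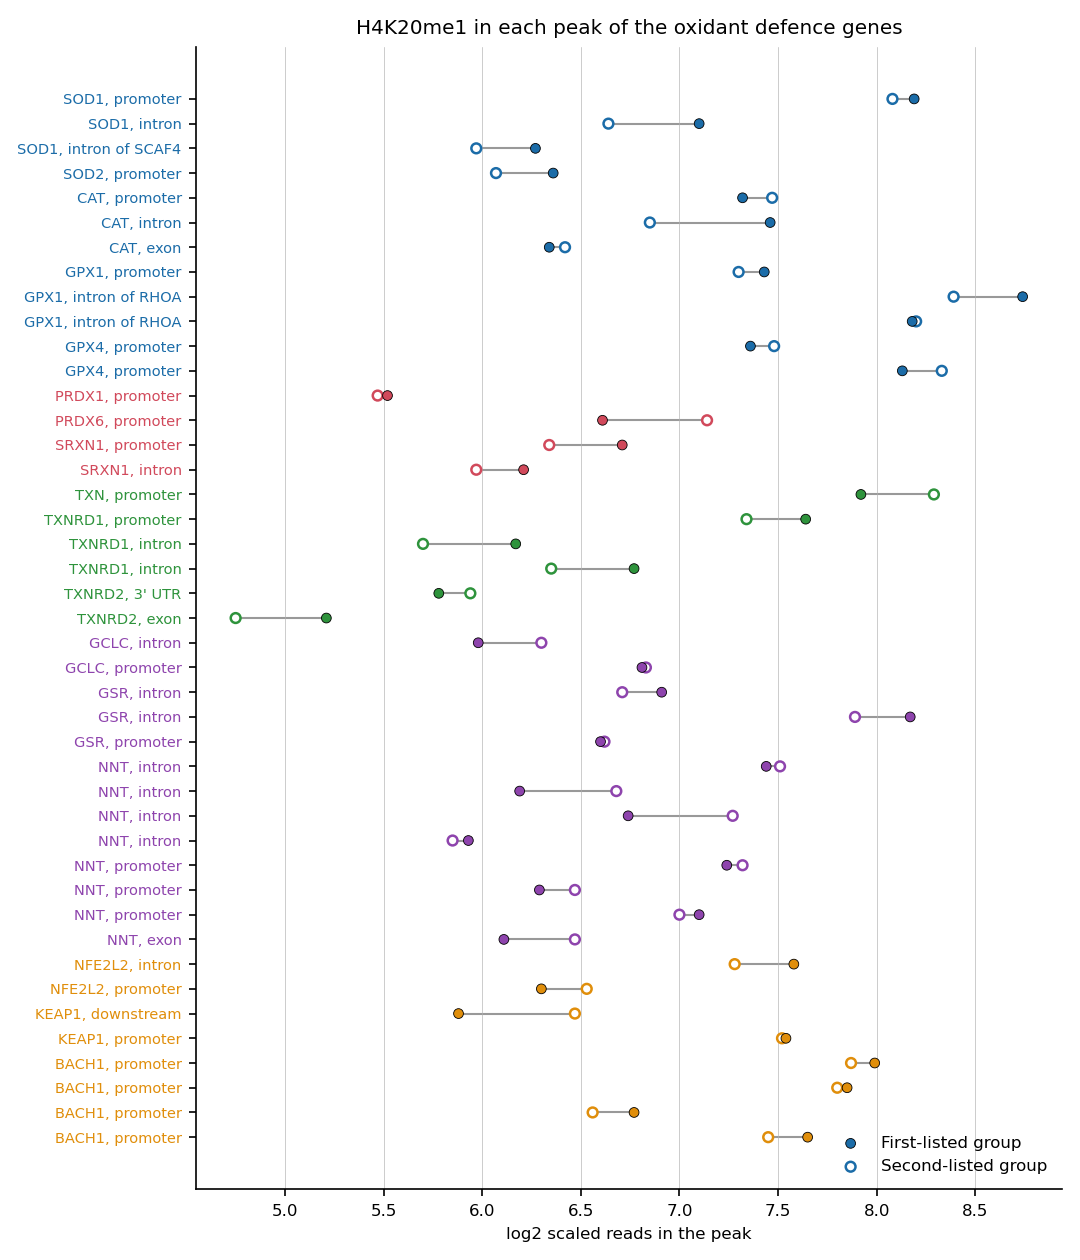
Log2 scaled reads of the first-listed (filled) and second-listed (open) group in each of the 43 peaks, by gene and by class of the authors' annotation, colours as roles. The gap between the paired points is the log2 fold change, and as scaled by the authors it is widest in the CAT intron (0.61) and downstream of KEAP1 (−0.58).

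To use the depth of a whole gene, reads were summed over its peaks, and the log2 ratio was given an exact Clopper-Pearson 95% interval that covers counting error only. The interval lay above 0 in 4 of 17 genes (23.5%), against 23.0% of 9020 genes, and below 0 in 3 of 17 (17.6%), against 8.97%. If both ends of each fragment were counted as reads, counts must be divided by 2. The interval then lay above 0 for TXNRD1 alone (14.2% of all genes) and below 0 for TXN alone (4.45% of all genes). Unless pairs are named, the intervals of read ratios below, single peaks included, count every read alone. They would be wider with reads counted as pairs. Neighbouring peaks of other genes give a local scale: within 2.5 Mb of the members, medians of such peaks ran from −0.08 to 0.285. Of the 17 ratios, 6 lay above and 11 below their local median. The 4 outside the local quartiles were PRDX6, TXN, GPX4 and KEAP1, all on the low side. The ratios of TXNRD1 and NNT lay within their local quartiles. With equal reads in peaks 9 ratios lay above 0 and 8 below, and intervals left out 0 above for TXNRD1 and below for TXN, PRDX6, NNT, GPX4 and KEAP1. This scaling shifts the ratio of every gene by −0.11. The shares of all 9020 genes were not counted under it, so these counts cannot be read as particular to the list.

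**Figure D3:**
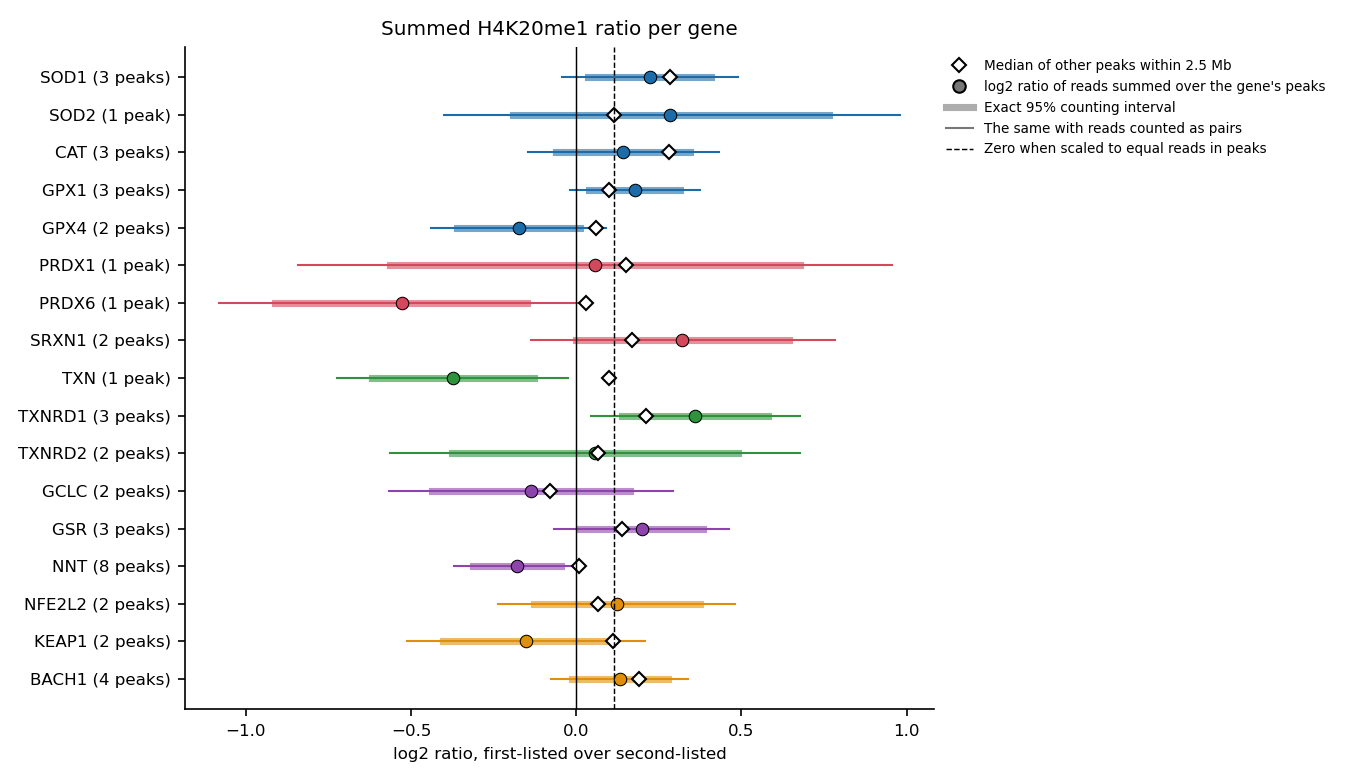
Log2 ratio of summed reads for each of the 17 genes (points), with the exact 95% counting interval (thick bars), the wider interval for reads counted as pairs (thin bars) and the median of other peaks within 2.5 Mb (diamonds). The dashed line is where 0 would lie with equal reads in peaks (0.11), and TXNRD1 and TXN are the genes whose thin bars leave out the solid 0 line.

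Thioredoxin and its reductase had values of opposite sign. TXN encodes thioredoxin, the small dithiol protein that feeds peroxiredoxins. Its only peak covered the start and the first part of the gene (chr9:110254287-110256957), which includes the TXN sequence shown above. It held 242 reads against 326 in the second-listed group, or 7.92 and 8.29 in log2 scaled reads, a log2 fold change of −0.37 (interval −0.62 to −0.13, authors' unadjusted p 0.305). The other 18 peaks within 2.5 Mb had a median of 0.10. TXNRD1, the cytosolic selenoenzyme that reduces thioredoxin with NADPH, had 3 peaks, all higher in the first-listed group. The peak at the internal start (chr12:104286977-104289794) gave 7.64 and 7.34 (199 and 169 reads, fold change 0.30, p 0.422). One in intron 4 of 16 (chr12:104294338-104295025) gave 6.17 and 5.70 (72 and 54 reads, 0.47, −0.06 to 1.01, p 0.259), and one in intron 16 of 16 gave 6.77 and 6.35 (0.42, p 0.305). No peak of any gene overlapped the window of the upstream start. In the 71.2 kb between that start and the first of these peaks, no peak was given to TXNRD1. Peaks named for other genes were not examined there. Summed, 380 and 308 reads gave 0.36 (0.14 to 0.58), where 44 neighbouring peaks had a median of 0.21. With equal reads in peaks the ratio was 0.25 (0.03 to 0.47) for TXNRD1 and −0.49 (−0.73 to −0.24) for TXN.

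TXNRD2, the mitochondrial thioredoxin reductase, was among the most thinly covered of these genes. Its peak in the 3′ untranslated region (chr22:19874952-19876386) held 55 and 64 reads (fold change −0.16), and the one in its exon 8 of 8 (chr22:19891402-19892110) held 37 and 28, or 5.21 and 4.75 (0.46, interval −0.29 to 1.22, p 0.285). The sum of 92 reads in each group gave 0.06 (−0.38 to 0.49), and the intervals of both peaks held 0. With equal reads in peaks the sum was −0.06.

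Among the peroxiredoxin genes, PRDX6 had the lowest ratio of the 17 genes. Its protein takes its electrons from glutathione and also acts on phospholipid peroxides. The peak at its start (chr1:173477003-173478648) overlaps the uncharacterized gene LOC100506023 and held 98 and 147 reads, or 6.61 and 7.14, a fold change of −0.53 (−0.91 to −0.15, p 0.183). The 17 neighbouring peaks had a median of 0.03. With reads counted as pairs its interval was −1.08 to 0.01. PRDX1, an abundant cytosolic peroxiredoxin, had 46 reads in each group at the start the authors use (chr1:45521325-45522071), a fold change of 0.06 with an interval from −0.56 to 0.68, and −0.06 with equal reads in peaks. SRXN1 had a peak 1177 bp past the start the authors use (chr20:650035-652193) with 105 and 84 reads, or 6.71 and 6.34 (0.38, −0.05 to 0.81, p 0.351). Another, with 74 and 65 reads (0.24), lay in intron 1 of 2 of a UCSC transcript, outside the RefSeq gene and over SCRT2. Summed, SRXN1 gave 0.32 (−3.5e-05 to 0.65).

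The summed ratios of SOD1, SOD2 and CAT were above 0, with an interval that left out 0 for SOD1 only, and for none of the 3 with equal reads in peaks. SOD1, the cytosolic copper-zinc enzyme, carried a broad peak over its start (chr21:31659360-31661582), shared with the divergent SOD1-DT, with 292 and 282 reads, or 8.19 and 8.08 (0.11, −0.13 to 0.35, p 0.764). In its intron 2 of 4 (chr21:31665523-31666260) the values were 7.10 and 6.64, from 137 and 104 reads (0.45, 0.08 to 0.84, p 0.252). Another peak that the rule gives to SOD1 lies in intron 19 of 19 of SCAF4 (77 and 65 reads, 0.30). Their sum gave 0.22 (0.04 to 0.41), beside a median of 0.285 for the 42 neighbouring peaks, and with equal reads in peaks 0.11 (−0.08 to 0.30). SOD2, the mitochondrial manganese enzyme, had 82 and 70 reads at the start the authors use (chr6:159692385-159693761, 0.29, −0.19 to 0.77).

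CAT, the peroxisomal catalase, had the highest single fold change of the list. A peak in its intron 1 of 12 (chr11:34446662-34448991) held 176 and 120 reads, or 7.46 and 6.85, a fold change of 0.61 (0.27 to 0.96) with an unadjusted p of 0.115 in the authors' deposited table. Its start (chr11:34438566-34440151) went the other way, with 160 and 184 reads (−0.14, −0.46 to 0.17). Another peak, past the gene and over ELF5, gave 81 and 89 reads (−0.08). Over all 3 the ratio was 0.14 (−0.06 to 0.35), below the local median of 0.28.

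The glutathione peroxidases differed in sign from each other. GPX1, the abundant cytosolic form, had 172 and 164 reads at its start (chr3:49357389-49358918, 0.13, −0.19 to 0.44). Its summed value of 0.18 (0.04 to 0.32) includes the RHOA peaks, without which the start alone remains, and was 0.06 (−0.08 to 0.20) with equal reads in peaks. One of them (chr3:49377334-49378682) was the deepest of the list with 428 and 349 reads, or 8.74 and 8.39 (0.36, 0.14 to 0.56, p 0.303), and the other gave −0.01. GPX4, which reduces lipid peroxides in membranes and holds back ferroptosis, was lower in the first-listed group at both of its peaks. The peak at its start (chr19:1103853-1105185), which overlaps part of the GPX4 sequence above, held 164 and 186 reads (−0.12). The other, 520 bp past the start the authors use for it (chr19:1105974-1107501), held 280 and 335 (−0.20, p 0.579). Their sum gave −0.17 (−0.36 to 0.01), and −0.29 (−0.47 to −0.10) with equal reads in peaks, where the local median as scaled by the authors was 0.06.

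Glutathione genes split between GSR and NNT. GSR, which reduces oxidised glutathione, had 3 peaks within the first 7.78 kb of the gene on chromosome 8, each with more than 200 scaled reads per kb. The peak nearest its start (30725676 to 30726086), 924 bp past the start the authors use, gave 97 and 102 reads (−0.02). The deeper peak in intron 1 of 12 (30722535 to 30723659) gave 288 and 247, or 8.17 and 7.89 (0.29, 0.03 to 0.53, p 0.421), and a short one beside it 120 and 109 (0.20). The sum gave 0.20 (0.01 to 0.38), and 0.08 (−0.10 to 0.27) with equal reads in peaks. GCLC, the catalytic subunit of glutamate-cysteine ligase, the rate-limiting enzyme of glutathione synthesis, had 112 and 118 reads at its start (chr6:53543637-53545431, −0.02) and 63 and 82 in its intron 1 of 15 (−0.32, p 0.436). Its sum of −0.14 (−0.44 to 0.16) was close to a local median of −0.08.

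NNT, the transhydrogenase that supplies mitochondrial NADPH, held 8 of the 43 peaks, more than any other gene of the list. The widest gaps were in neighbouring introns. In intron 7 of 21 (chr5:43631085-43631712) the values were 6.74 and 7.27, from 107 and 161 reads (−0.52, −0.90 to −0.17, p 0.182), and in intron 6 (chr5:43626961-43627437) 6.19 and 6.68, from 73 and 107 reads (−0.49, −0.94 to −0.05, p 0.227). Its deepest peak, in intron 5 (chr5:43620003-43622998), gave 174 and 190 reads (−0.06). The remaining 5 ran from −0.36 to 0.10, the lowest of them in an exon of another transcript 196390 bp beyond the start the authors use. Summed, 850 and 1001 reads gave −0.18 (−0.31 to −0.05) beside a local median of 0.01. The interval held 0 with reads counted as pairs (−0.37 to 0.01). It also held 0 with promoter peaks alone (−0.04) and with genes named by the exon or intron that holds the peak (−0.10), which adds a peak of 0.34 inside NNT. A peak named for NNT-AS1 that overlaps the window of an NNT start (0.14) enters none of these sums. Without NNT, the median over the peaks of the list was 0.12 in place of 0.06, which was tried only once the values were known.

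The regulators of the response had summed ratios whose intervals held 0 under the authors' scaling and gene assignment. NFE2L2 gave 79 and 96 reads at the start the authors use (chr2:177263430-177264126, −0.22, −0.67 to 0.22) and 191 and 162 in intron 1 of 4 (chr2:177239416-177240397, 7.58 and 7.28, 0.30, −0.02 to 0.61, p 0.422), with a sum of 0.12 (−0.13 to 0.37). KEAP1, the adaptor that sends NRF2 for degradation, had a peak at a start used by the authors' annotation inside the gene (chr19:10491175-10492311) with 186 and 191 reads (0.02). Past its end (chr19:10483495-10484122) it had 59 and 92 reads, or 5.88 and 6.47, a fold change of −0.58 (−1.08 to −0.10, p 0.160), the lowest of the list. Its sum was −0.15 (−0.40 to 0.10), and −0.27 (−0.52 to −0.01) with equal reads in peaks. The single start that holds both KEAP1 cores shown above lay under no peak. BACH1, the heme-sensing repressor of NRF2 targets, had 4 peaks on chromosome 21, all in the authors' promoter class and all slightly above 0. The deepest, at the start the authors use (29299489 to 29300760), held 254 and 243 reads, or 7.99 and 7.87 (0.12, −0.14 to 0.38, p 0.738), and the others gave 0.05, 0.21 and 0.20. Its sum of 0.13 (−0.01 to 0.28) lay below the local median of 0.19. With 2 further peaks in its intron 4 (0.73 and 0.72) that the rule gives to GRIK1-AS2, the sum was 0.23 and its interval left out 0.

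**Figure D4:**
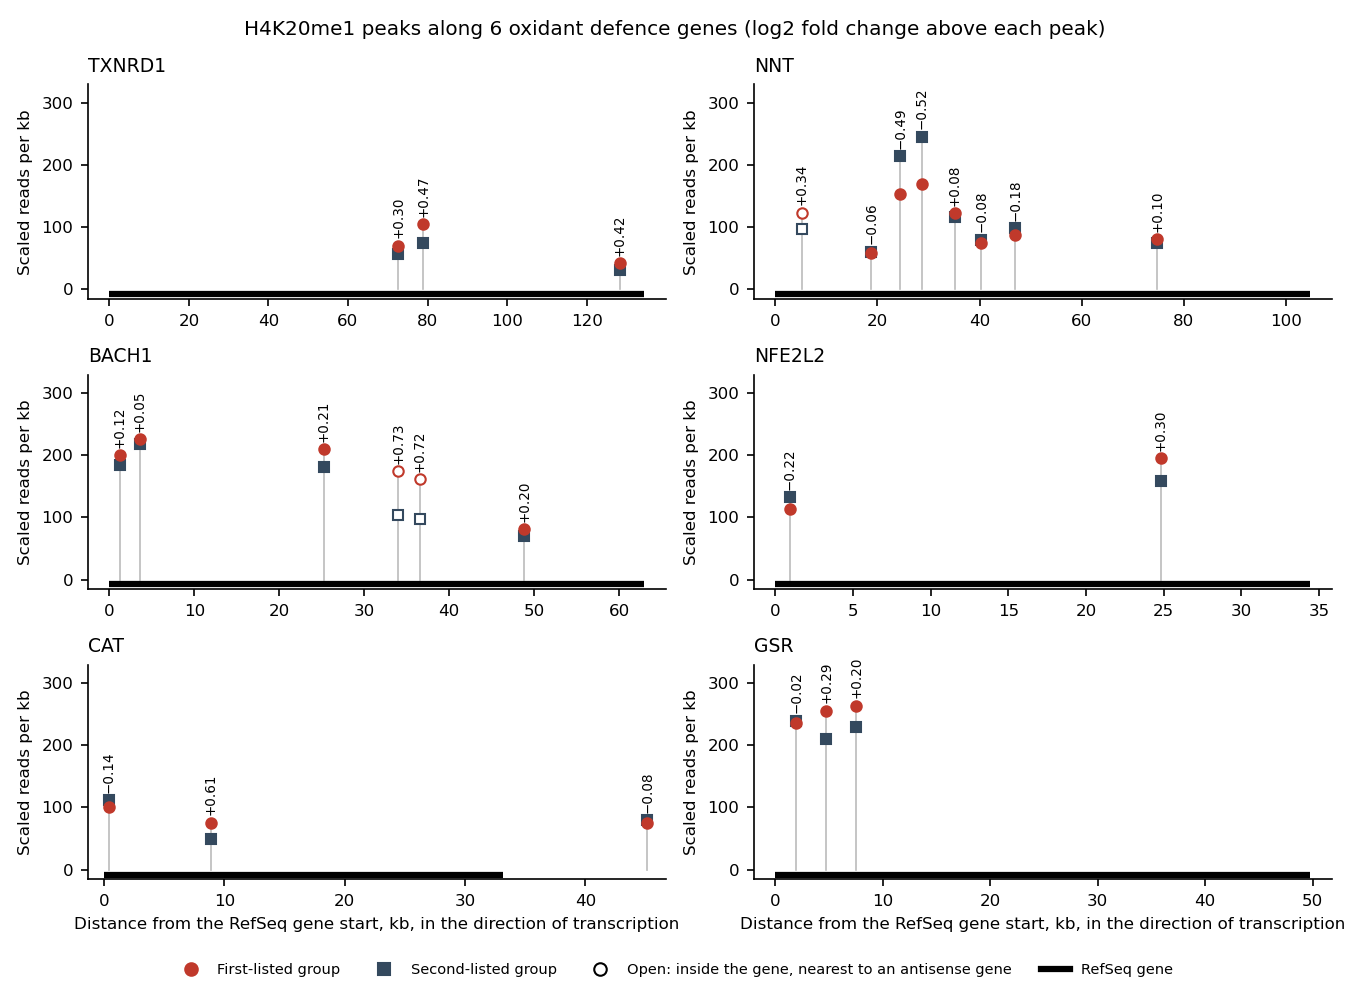
Scaled reads per kb in the first-listed (circles) and second-listed (squares) group at the centre of each peak along 6 genes, in kb from the RefSeq start, with the log2 fold change above. NNT is lower in the first-listed group at −0.49 and −0.52 in neighbouring introns and TXNRD1 higher at 0.30 to 0.47 in all its peaks. Open symbols are peaks held by an intron of the gene that the rule gives to an antisense gene. Not drawn are 1 further NNT peak beyond the axis and a peak named for NNT-AS1 that overlaps an NNT start window (0.14).

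Within a gene, intron and start did not always match. A start here is any start in the authors' annotation, and some lie far inside the RefSeq gene. The start peaks of NNT began 39.3 and 73.9 kb past the RefSeq start, beyond its intron peaks, and that of TXNRD1 71.2 kb past it. In 8 genes with both a peak within 1 kb of a start and an intron peak, the mean intron fold change exceeded the mean start value in 6 and lay below it in 2. The median of this difference was 0.205, against 0.06 over 1758 genes, 55.3% of which were above 0. It was 0.75 in CAT, 0.52 in NFE2L2, 0.265 in SOD1 and GSR, 0.145 in TXNRD1 and 0.045 in GPX1, and −0.30 in GCLC and −0.26 in NNT. The GPX1 introns are those of RHOA and 1 SOD1 intron is that of SCAF4, so 6 of the 8 rest on introns of the gene itself. Scaling cannot move these differences, since both peaks shift together. Over the list, the 17 peaks within 1 kb of a start had a median of −0.02 (all such gene peaks 0.08), and the 16 intron peaks one of 0.265 (all 0.10).

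The wider pathway was read from 119 further genes chosen for their role, of which 60 had a gene peak (50.4%, interval 41.1 to 59.7). By the authors' deposited table, 0 of their 106 peaks had an adjusted p under 0.05, and 5 peaks of 4 genes (4.72% of the peaks) had an unadjusted p under 0.05, all higher in the first-listed group, where 3.89% of gene peaks were higher and 1.31% lower. The share is near that background, and the genes are named as single values. Of these, 2 were in FBXW11, which encodes a substrate receptor of the ubiquitin ligase that can degrade NRF2 without KEAP1. In its intron 1 of 12 (chr5:171940377-171941599) the reads were 82 and 36 (1.24, 0.66 to 1.85, p 0.00374, adjusted p 0.691), and in its 3′ untranslated region 187 and 98 (0.99, p 0.0116). Another was within 1 kb of a start of the transferrin receptor gene TFRC (152 and 89 reads, 0.83, p 0.0379). The others were in an intron of ACSL4, which feeds polyunsaturated lipids into membranes (66 and 38 reads, 0.85, p 0.0433), and within 1 kb of a start of MTHFD2L, a mitochondrial folate enzyme (98 and 57 reads, 0.84, p 0.0442). Summed over all peaks of the gene, the interval held 0 for TFRC (0.18, −0.02 to 0.37) and ACSL4 (0.30, −0.01 to 0.61). It left out 0 for FBXW11 and MTHFD2L.

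By group, counting intervals of summed reads lay above 0 in 17 of the 60 genes (28.3%) and below 0 in 5 (8.33%), near the 23.0% and 8.97% of all genes. The lists below are small, and their counts were not tested against those shares. All 13 partners and degraders of NRF2 had a peak, 8 above and 5 below 0, with a median of 0.02. With equal reads in peaks 5 were above and 8 below, with a median of −0.09. NFE2L1, a relative of NRF2 on chromosome 17, had 644 and 892 reads (−0.41, −0.56 to −0.27), where 84 neighbouring peaks had a median of −0.215. NADPH suppliers gave a median of 0.27 over 12 genes, 6 of them with an interval above 0 and 1 below, and PGD of the pentose phosphate pathway gave 0.73 (0.33 to 1.14). The 10 genes of heme, iron and lipid peroxide defence were all above 0 (median 0.26), 3 with an interval above 0, but 8 of 10 with equal reads in peaks. Further glutathione genes had a median of 0.12 and thiol repair genes one of 0.22. MGST2, a microsomal glutathione transferase, was lowest at −0.55 (−1.07 to −0.05) on 55 and 84 reads, where its 23 neighbours had a median of 0.32. Oxidant producers were the group with a median below 0 (−0.14 over 7 genes, 5 below), with NOX5 at −0.36 (−0.76 to 0.03). Of all 9020 genes, 5580 lay above 0 and 3440 below as scaled by the authors, with a median of 0.09. With equal reads in peaks each of these ratios and medians is lower by 0.11.

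**Figure D5:**
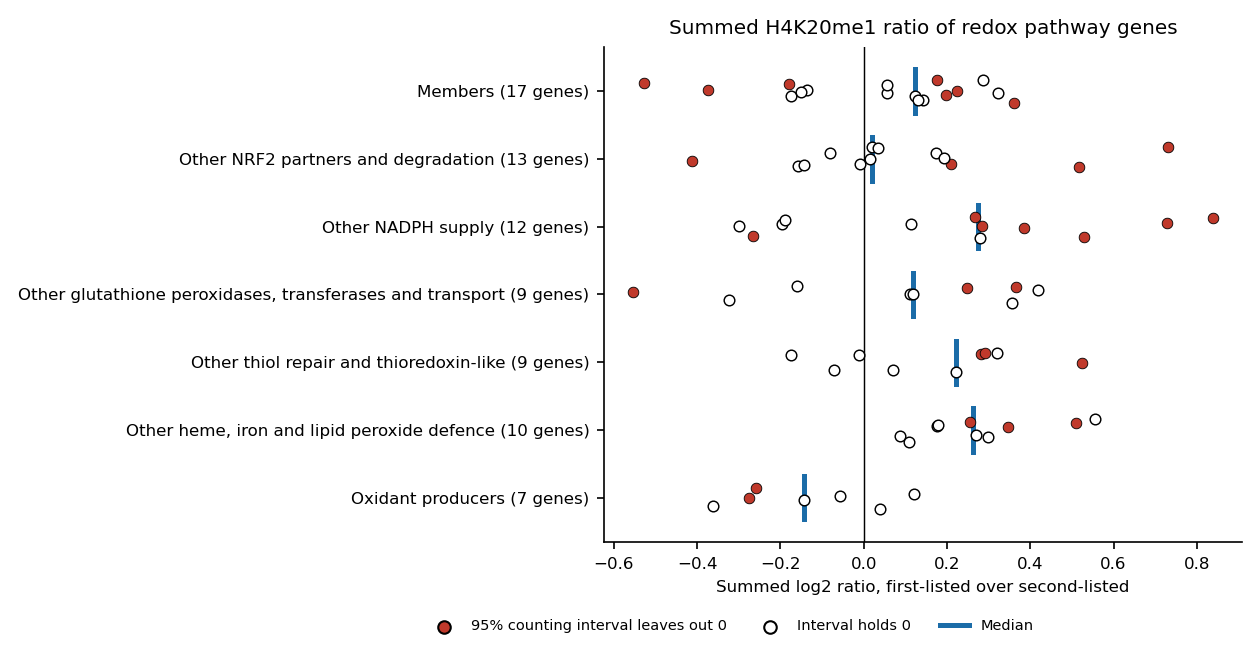
Summed log2 ratio (first-listed over second-listed) of each gene with a peak, for the 17 members and 6 lists of further redox genes, with blue lines at the medians and filled points where the 95% counting interval leaves out 0. The 10 genes of heme, iron and lipid peroxide defence all lie above 0 as scaled by the authors (8 with equal reads in peaks), and 5 of 7 oxidant producers below it (6 with equal reads). Of all 9020 genes, 5580 lie above 0 as scaled by the authors.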

How the data were processed

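H4K20me1 CUT&Tag was measured in 4 Kasumi-1 libraries, 2 control and 2 SETD8 knockout. Per the submitters' processing notes, cutadapt, Bowtie2 and DESeq were used with build hg38. No source used here gives versions, the peak caller or duplicate handling. Nor does any say which of the 4 libraries enter each value, or whether and how libraries of a group were combined. The deposited log2 values are log2 of scaled reads in a peak, 1 per group, and the deposited p-values, unadjusted and adjusted, are the authors' own. With 1 value per group no test was fitted here.

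Low values (1.5 to 5.5) were log2 of whole numbers plus 1 constant per group (0 and −0.057) in 100% of 5676 and 5557 peaks, within 0.0051. Reads were recovered from these steps, summed by gene and given exact Clopper-Pearson 95% intervals, which cover counting error only, with Python 3.11.15, pandas 2.3.3, numpy 2.4.6, scipy 1.17.1 and matplotlib 3.10.9. The steps were checked in that range only, and most member peaks lie above it. There the rounded values do not always fix a large count to the single read. Recovery was tested on simulated whole reads with known constants. That simulation held no read pairs and no spread between libraries, so it covers the recovery step and counting error alone. Of peaks with 2 to 7 reads, 75.5% of 237 and 86.9% of 222 held an even number. Counts divided by 2 were therefore tried for sums by gene, as reads counted as pairs, but not for single peaks. Gene positions and start sequences are from RefSeq GRCh38.p14.

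Members and lists were chosen with earlier results of these data known. Every member is named. Full values go to the deepest peak and the 2 largest fold changes of each role. Further genes are named for an unadjusted p under 0.05, or as the 3 highest or 3 lowest summed ratios with 50 reads in each group. Alternatives changed which peaks count, the gene assignment, the threshold and the scaling.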

Additional observations from a re-analysis of the deposited data

Results flagged for a closer look

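Some peaks at the same genes fell outside the rule. Those held by an intron of the gene, and distal intergenic ones, are given for their signal in data the report did not use. Their intervals count every read alone. In intron 4 of 4 of BACH1, 2 peaks whose nearest gene is the antisense GRIK1-AS2 held 196 and 123 reads together, a log2 ratio of 0.73 (interval 0.40 to 1.07). Each alone gave 0.73 and 0.72, with unadjusted p of 0.0786 and 0.0783 and an adjusted p of 0.994 in the authors' deposited table. The 4 BACH1 peaks of the report ran from 0.05 to 0.21, and the difference between these sets was not tested. Inside an intron of NNT, 1 peak nearest to NNT-AS1 held 176 and 145 reads (0.34, 0.01 to 0.66). Another peak named for NNT-AS1 overlapped the window of an NNT start (0.14). A further 7 distal intergenic peaks whose nearest gene is NNT held 603 and 723 reads (−0.20, −0.36 to −0.05). For SRXN1, 1 distal intergenic peak held 64 and 77 reads (−0.21, −0.71 to 0.29). Start windows of SOD2 also overlapped peaks named for WTAP (0.27) and SOD2-OT1 (−0.02).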

How the results depend on the processing

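No paired analysis was possible because the table holds 1 value per group and no separate libraries, and leaving out a replicate was not run for the same reason. The count of member peaks past the adjusted or unadjusted threshold was 0 in every alternative tried, and members with a peak numbered 15 to 17. The median fold change of member peaks ran from −0.05 with equal reads in peaks to 0.13 with 1 mean per gene. Genes whose summed interval left out 0 numbered 7 of 17, but 2 with promoter peaks alone and 2 with reads counted as pairs, both of which use fewer reads. GSR reversed with promoter peaks alone, at −0.016. Of 99 alternatives for single genes, 75 stayed on their side of the interval rule (70 with the same sign, 5 at the other sign or 0 with an interval that held 0, in PRDX1, TXNRD2 and KEAP1), 17 no longer left out 0, 4 newly did, 2 moved and 1 reversed. With genes named by the intron or exon that holds the peak, BACH1 gave 0.23 and left out 0, and NNT gave −0.10 and did not. Reads counted as pairs, host gene for summed ratios, no scaling for them, the RefSeq gene limit and leaving out NNT were chosen after seeing the data. What depth allows was examined for peaks with 200 to 260 reads alone.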
